A study of Mus musculus with 7 samples.

Results

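The 34 genes described here are active in germ cells and meiosis, and many of them are kept silent in body cells by methylation of their promoter DNA. They were chosen by gene symbol, with earlier results of these data known, and all 34 were found among the 54838 genes of the deposited table. The shares of all genes given beside their counts are for scale and do not test the list. RNA had been sequenced from 7 mouse cultures. Induced pluripotent stem cells (iPSCs), cells returned to a state like that of the early embryo, came from germinal center (GC) B cells, which diversify antibody genes during an immune response. The M-iPSC group is 3 colonies titled M, and the titles do not spell the letter out. It is read here as the Myc-GFP sort, which picks out the GC B cells that T follicular helper cells had stimulated, because the design names no other source beside bulk GC B cells, and the comparison with GC-iPSC colonies asks how the 2 sources differ. The GC-iPSC group is 3 colonies from bulk GC B cells. V6.5, a widely used line of mouse embryonic stem cells (mESC), is a single library with no replicate. Both colony groups share their history. Male mice had received SRBC 9 days earlier, splenic B220+ CD38- Fas+ cells were sorted and cultured with cytokines on a layer of embryonic fibroblasts (MEF) for 6 days, and reprogramming ran for 10 days in doxycycline (Dox). After 4 further days free of Dox, single colonies were picked, passaged once on gelatin, then left to settle for 45 min so that MEF could be discarded. Each iPSC library is thus 1 clone. All 7 cultures were kept in KO-DMEM with FBS and LIF. Strain, age and donor of the mice, and the reprogramming factors, are not given in the sources used here. Nothing ties colonies to separate mice, so p-values measure only the spread between these colonies.

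In mice, genes of this kind tend to have promoters rich in CpG dinucleotides, and the de novo methyltransferases Dnmt3a and Dnmt3b methylate them around implantation, after which Dnmt1 with its cofactor Uhrf1 copies the mark at each division. A Polycomb complex built around E2f6, Mga and Pcgf6, and the histone methyltransferases Setdb1 and Ehmt2, repress overlapping sets of them in embryonic stem cells. Primordial germ cells erase the methylation, and the genes then serve meiosis, the piRNA pathway (small RNAs that silence transposons) and sperm formation. DNA methylation was not measured in these libraries, so every value here is a level of RNA.

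The 34 genes were read deeply enough for most to be compared. Library totals lay between 31139508 counts (V6.5) and 35728921 counts (GC-iPSC 1), and a count of 0 leaves room for up to 3 counts, or 0.0840 to 0.0963 CPM (counts scaled to the library total), by counting error only. Levels are CPM scaled by the TMM method unless stated. Together the 34 genes made up 572, 577 and 571 CPM in M-iPSC colonies, 639, 655 and 618 CPM in GC-iPSC colonies and 639 CPM in V6.5. Of the 34, 32 held at least 10 counts in every library and 24 at least 100. Asz1 was the 1 gene with a count of 0, in M-iPSC 1. All 34 passed the filter on low counts in both fits.

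The labelled cell types were checked against marker genes. The 12 pluripotency markers, among them Pou5f1 and Nanog, summed to 6455 to 7008 CPM in M-iPSC colonies, 6536 to 6829 CPM in GC-iPSC colonies and 8829 CPM in V6.5. Of these, Klf4 and Pou5f1 were higher in M-iPSC than in GC-iPSC colonies (without M-iPSC 2 and M-iPSC 3, Pou5f1 only), and 9 were lower and Lin28a higher in iPSCs than in V6.5. The 11 markers of late male germ cells and of testis body cells summed to 6.24 to 7.96 CPM in M-iPSC colonies, 5.91 to 7.31 CPM in GC-iPSC colonies and 5.39 CPM in V6.5. Prm2 and Tnp1, which package DNA in sperm, were at 0 in all 7 libraries. The 10 B cell markers summed to 13.0 to 14.3 CPM in M-iPSC colonies, 16.4 to 19.5 CPM in GC-iPSC colonies and 15.1 CPM in V6.5. The 8 Y-linked genes measured were at 0 in M-iPSC 2 and M-iPSC 3, although the mice are given as male. They summed to 134 CPM in M-iPSC 1, 117 to 138 CPM in GC-iPSC colonies and 25.5 CPM in V6.5. V6.5, on which every comparison with iPSCs rests, thus also stood apart, and the part of this in those results was not tested. Why M-iPSC 2 and M-iPSC 3 lack Y-linked RNA was not tested. Whether they arose separately is not given, so the M-iPSC colonies may not be 3 independent ones. Genes called between the colony groups are also given without M-iPSC 2 and M-iPSC 3. These are bulk libraries, so a lower level can be fewer cells that carry a transcript or less RNA in each cell, and these cannot be told apart.

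**Figure D1:**
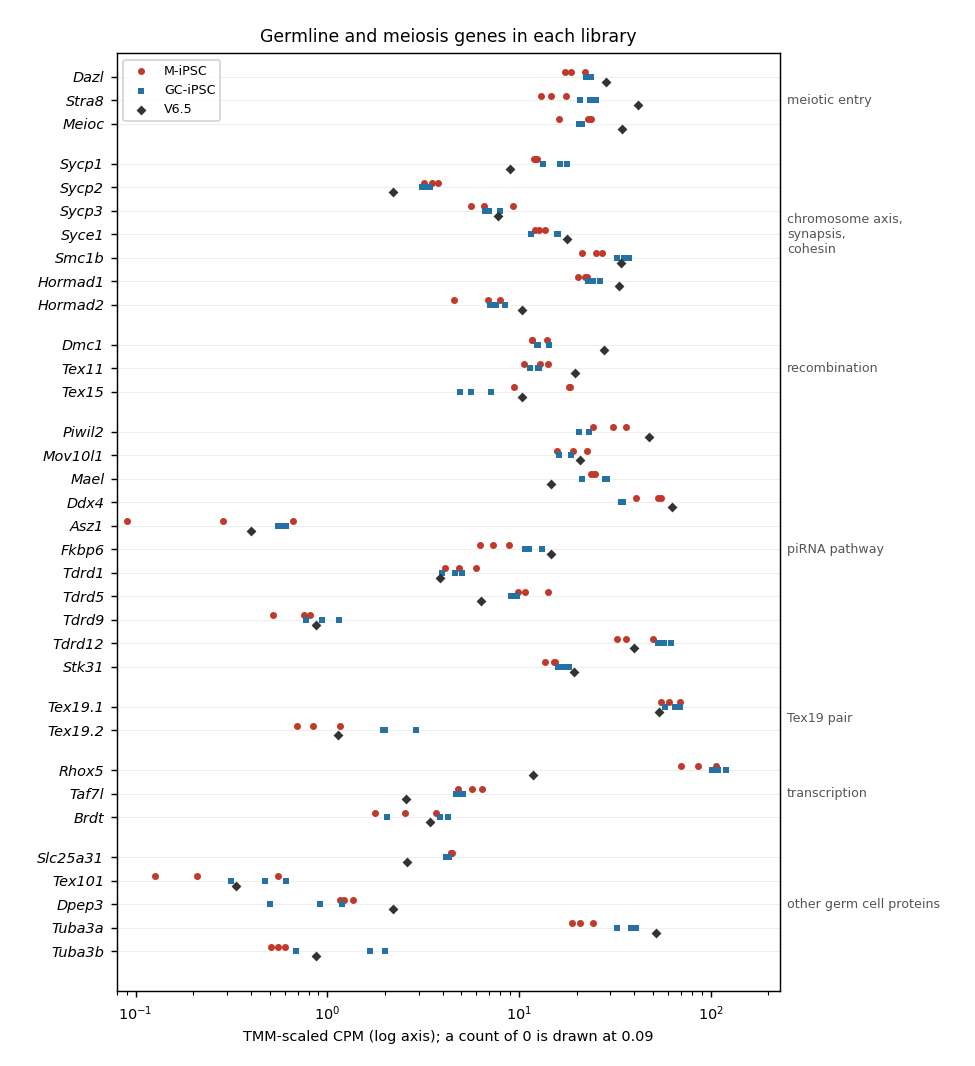
Level of each of the 34 genes in each library, in TMM-scaled CPM on a log axis, grouped by role: red circles are the 3 M-iPSC colonies, blue squares the 3 GC-iPSC colonies and black diamonds the V6.5 library. Rhox5 stands at 69.9 to 119.7 CPM in the 6 colonies and 11.9 CPM in V6.5, and Asz1 at 0 (drawn at the left edge) to 0.659 CPM in the colonies.

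M-iPSC colonies had more RNA of 2 of the 34 genes and less of 6 than GC-iPSC colonies, and 26 did not pass the test. Higher were Tex15, which meiotic recombination and transposon methylation need, and Ddx4, the RNA helicase also called Vasa. Lower were Stra8, the switch for meiotic entry, the meiotic cohesin Smc1b, the piRNA factors Fkbp6 and Tdrd12, Tex19.2, and the testis tubulin Tuba3a. The test was the quasi-likelihood test of edgeR, two-sided, with Benjamini-Hochberg adjustment over 18166 genes and a threshold of 0.05, and it called 3.97% of them, 1.7% higher and 2.27% lower. The median log2 change was -0.18 over the 34 genes and 0.00 over all genes tested, and 23 of the 34 changes were negative. The 3 M-iPSC values lay wholly above the 3 GC-iPSC values for 5 genes and wholly below for 11, against 10.1% and 12.0% of all genes tested, or 22.1% on either side. At an unadjusted p under 0.05 there were 13 of the 34, against 3022 of all 18166 genes tested. The 8 edgeR calls were lost once M-iPSC 2 and M-iPSC 3 were left out together. That fit has 1 M-iPSC library and the spread of the GC-iPSC colonies alone. The log2 change in that fit, with that of all 6 colonies after it, was 0.68 and 1.38 for Tex15, 0.23 and 0.52 for Ddx4, -0.40 and -0.65 for Fkbp6, and -0.21 and -0.54 for Tdrd12. It was -0.66 and -0.62 for Stra8, -0.49 and -0.52 for Smc1b, -0.97 and -1.34 for Tex19.2, and -0.61 and -0.79 for Tuba3a, so all 8 kept their sign. In that fit 373 genes were called in all, against 721 with all 6 colonies. Markers of a 2-cell-like state, described last, also separated the colony groups, at 258 to 384 CPM in M-iPSC and 556 to 614 CPM in GC-iPSC colonies, and their part in these results was not tested.

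Set against V6.5, the 6 colonies together had more RNA of 5 of the 34 genes and less of 10, and 19 did not pass. The homeobox gene Rhox5 was 8.23-fold higher, and Taf7l, Mael, Tdrd5 and Sycp1 were also higher. All 3 genes of meiotic entry were lower (Stra8, Meioc and Dazl), as were Dmc1 and Tex11 of recombination, Hormad1 of the chromosome axis, Piwil2, Ddx4 and Fkbp6 of the piRNA pathway, and Tuba3a. The same edgeR test over 20502 genes called 16.3% of them, 8.76% higher and 7.56% lower. The median log2 change was -0.15 over the 34 genes and 0.02 over all genes tested. V6.5 lay below all 6 colonies for 9 genes and above all 6 for 14, against 25.7% and 25.7% of all genes tested, or 51.4% on either side. With 1 V6.5 library the spread came from the colonies, which takes V6.5 to be as variable as a colony. Other features of V6.5 differ too: its 10 primitive endoderm markers summed to 468 CPM, against 2198 to 3734 CPM in M-iPSC and 1908 to 2344 CPM in GC-iPSC colonies, and their part in these results was not tested.

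The 2 colony groups were also each compared with V6.5, and these comparisons share that 1 library. M-iPSC colonies had 4 of the 34 genes higher and 10 lower than V6.5 (8.84% and 7.37% of all genes tested, 16.2% in all), and GC-iPSC colonies 4 higher and 6 lower (7.53% and 5.51%, 13.0% in all). Dazl, Smc1b, Hormad1, Fkbp6, Tdrd5 and Tuba3a were called in the M-iPSC comparison and not in the GC-iPSC one, and Sycp1 and Ddx4 the other way round. Of those 8, the direct test between colony groups called Smc1b, Fkbp6, Tuba3a and Ddx4. In GC-iPSC colonies Hormad1 (log2 -0.43, edgeR adjusted p = 0.0504) and Tuba3a (log2 -0.47, edgeR adjusted p = 0.0607) fell just short of a call. The others had an edgeR adjusted p of 0.124 or more in the comparison that did not call them. Leaving out 1 colony ended some of the calls against V6.5. Against V6.5 in M-iPSC colonies, Dazl was lost without M-iPSC 3 (adjusted p 0.0605), Piwil2 without M-iPSC 3 (0.0515), and Smc1b without GC-iPSC 2, M-iPSC 1 or M-iPSC 3 (up to 0.104). In GC-iPSC colonies, Tex11 was lost without GC-iPSC 1 (0.0530) and Taf7l without GC-iPSC 1, 2 or 3 or M-iPSC 3 (up to 0.0878).

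**Figure D2:**
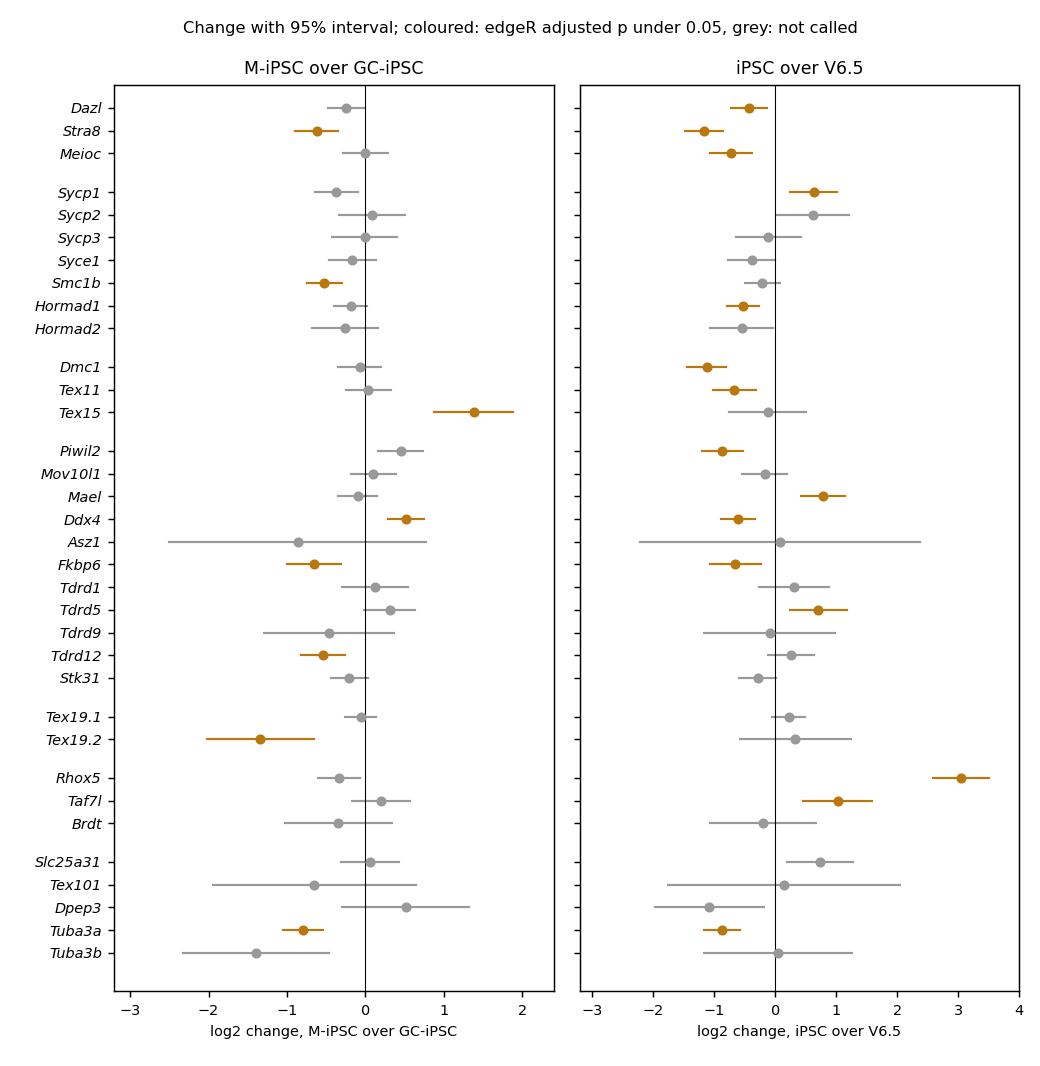
Log2 change of each of the 34 genes with its 95% interval, for M-iPSC over GC-iPSC colonies on the left and for all iPSC colonies over V6.5 on the right. Orange points passed the edgeR test (8 on the left, 15 on the right) and grey points did not.

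The promoters of 31 of the 34 genes were found in RefSeq (GRCm38.p6), as windows of 250 bases before to 50 bases after the transcription start. Windows more than 1000 bases from the gene's start in GENCODE were left out (Rhox5, Tex101 and Meioc), which left 28. The windows held a median of 17.5 CpG dinucleotides, from 2 (Tex19.2) to 48 (Tdrd5), against a median of 7.0 over all 32851 promoters of the table. At least 10 CpG were present in 26 of the 28 (92.9%), against 43.5% of all. The 2 sets were not chosen alike, which also holds for the motifs below. Each of the 28 is the window nearest its gene's GENCODE start, while the 32851 include several windows for some genes and have no limit on distance. The windows left out held 5 CpG in Rhox5, 19 in Tex101 and 28 in Meioc. The 6 windows below were picked to span many to very few CpG. They come from genes lower in M-iPSC colonies (Smc1b, Fkbp6, Stra8 and Tex19.2), a gene higher in them (Ddx4), and Mael, which was higher in iPSCs than in V6.5. The windows of Tuba3a (12 CpG) and Tdrd12 (9 CpG), also lower in M-iPSC colonies, are not printed. Capitals mark each CpG.
Stra8 (chr6:34920698-34920997, + strand): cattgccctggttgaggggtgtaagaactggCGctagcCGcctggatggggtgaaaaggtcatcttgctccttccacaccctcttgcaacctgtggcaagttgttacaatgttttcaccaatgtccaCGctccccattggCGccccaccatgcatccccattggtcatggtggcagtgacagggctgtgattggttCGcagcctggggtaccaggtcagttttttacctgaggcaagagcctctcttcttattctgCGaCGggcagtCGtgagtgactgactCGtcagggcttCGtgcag
Smc1b (chr15:85131908-85132207, - strand): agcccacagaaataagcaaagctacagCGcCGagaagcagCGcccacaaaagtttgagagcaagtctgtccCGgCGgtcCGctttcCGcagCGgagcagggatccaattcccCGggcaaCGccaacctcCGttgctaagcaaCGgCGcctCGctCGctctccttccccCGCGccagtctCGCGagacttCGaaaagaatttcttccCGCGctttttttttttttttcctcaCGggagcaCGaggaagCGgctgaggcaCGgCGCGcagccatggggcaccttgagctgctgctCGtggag
Mael (chr1:166238695-166238994, - strand): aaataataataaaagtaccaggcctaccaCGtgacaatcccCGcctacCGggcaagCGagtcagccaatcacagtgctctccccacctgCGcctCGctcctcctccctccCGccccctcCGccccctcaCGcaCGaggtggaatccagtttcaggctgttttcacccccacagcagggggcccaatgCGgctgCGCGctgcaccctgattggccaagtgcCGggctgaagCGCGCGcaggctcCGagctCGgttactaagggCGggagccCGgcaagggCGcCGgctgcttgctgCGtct
Ddx4 (chr13:112652261-112652560, - strand): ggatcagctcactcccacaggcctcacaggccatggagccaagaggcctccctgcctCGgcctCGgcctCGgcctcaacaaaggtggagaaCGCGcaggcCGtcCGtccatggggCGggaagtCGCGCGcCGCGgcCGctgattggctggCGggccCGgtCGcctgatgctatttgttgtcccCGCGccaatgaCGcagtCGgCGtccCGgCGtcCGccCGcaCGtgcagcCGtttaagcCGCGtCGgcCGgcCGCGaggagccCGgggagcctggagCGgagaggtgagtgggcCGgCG
Fkbp6 (chr5:135349995-135350294, - strand): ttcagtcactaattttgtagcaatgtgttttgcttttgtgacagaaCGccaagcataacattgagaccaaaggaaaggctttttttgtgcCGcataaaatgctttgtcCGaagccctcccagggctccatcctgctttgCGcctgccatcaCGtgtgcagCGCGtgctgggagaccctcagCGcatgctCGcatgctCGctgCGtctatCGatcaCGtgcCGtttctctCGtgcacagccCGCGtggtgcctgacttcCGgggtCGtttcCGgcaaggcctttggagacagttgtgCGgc
Tex19.2 (chr11:121118628-121118927, - strand): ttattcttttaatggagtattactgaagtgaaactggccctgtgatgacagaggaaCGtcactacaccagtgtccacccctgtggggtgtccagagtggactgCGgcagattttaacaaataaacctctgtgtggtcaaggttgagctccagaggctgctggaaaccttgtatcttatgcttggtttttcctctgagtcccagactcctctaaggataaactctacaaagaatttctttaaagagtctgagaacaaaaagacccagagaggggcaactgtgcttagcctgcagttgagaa

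Those windows hold 10 CpG in Stra8, 29 in Smc1b, 24 in Mael, 38 in Ddx4, 21 in Fkbp6 and 2 in Tex19.2; they were picked to span that range, so nothing about CpG content and direction of change can be read from them. The Stra8 window starts its transcript 785 bases from the GENCODE start. A pair of sequence motifs was searched on both strands, the E-box CACGTG, bound by Mga with Max, and the E2F motif GCGGGA or its reverse complement TCCCGC. Each contains a CpG, so both are more frequent in CpG-rich windows. The E-box was in 13 of 28 windows (46.4%), against 7.15% of all promoters, and the E2F motif in 12 (42.9%), against 20.0%. Either was in 19 (67.9%), against 25.1%, and both were in 6 (21.4%), against 1.99%. Counting from the transcription start, Mael has the E-box at position -223 and the E2F motif at -143 and 11, and Ddx4 has them at -29 and -136. Fkbp6 has the E-box at -101 and -37, Smc1b has the E2F motif at -47, and neither motif is in the Stra8 or Tex19.2 window. A match describes the letters only and is not a measured binding site.

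**Figure D3:**
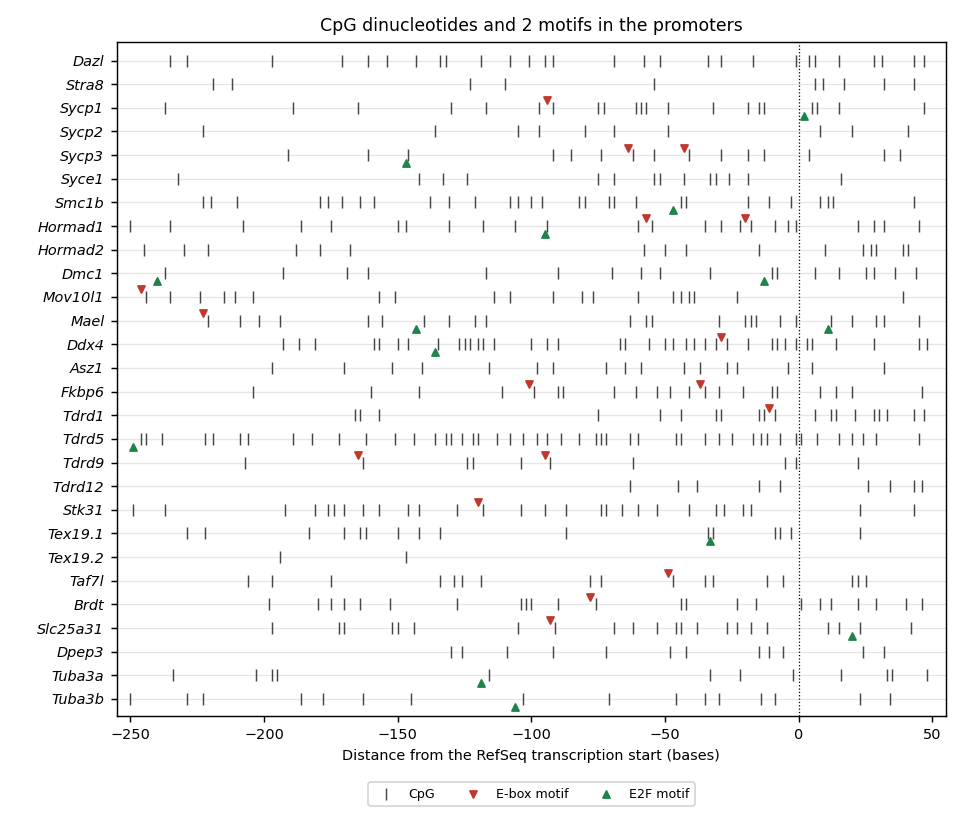
CpG dinucleotides (grey ticks), E-box motifs (red triangles) and E2F motifs (green triangles) in the 28 promoter windows, placed by distance in bases from the RefSeq transcription start. Tdrd5 holds 48 CpG, Ddx4 38 and Tex19.2 2.

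The genes of meiotic entry were all lower in iPSCs than in V6.5, and Stra8 was also lower in M-iPSC than in GC-iPSC colonies. Stra8, which retinoic acid induces and which starts the meiotic program, had 14.6, 17.6 and 13.0 CPM in M-iPSC colonies 1 to 3, 23.4, 25.2 and 20.7 CPM in GC-iPSC colonies 1 to 3 and 42.0 CPM in V6.5. The 3 groups did not overlap, and V6.5 was highest. M-iPSC colonies averaged 15.1 ± 2.34 CPM and GC-iPSC colonies 23.1 ± 2.27 CPM (SD, n = 3 each), a log2 change of -0.62 (SE 0.13, edgeR adjusted p = 0.0164). That call was lost without GC-iPSC 1, GC-iPSC 2 or M-iPSC 3, with adjusted p up to 0.117 over the 6 fits that leave out 1 colony. iPSCs were lower than V6.5 by a log2 change of -1.17 (SE 0.15, edgeR adjusted p = 0.000139), a call kept in each of those fits. Dazl, an RNA-binding protein that readies germ cells for meiosis, had 17.5, 22.0 and 18.6 CPM in M-iPSC colonies, 22.6, 23.9 and 22.2 CPM in GC-iPSC colonies and 28.4 CPM in V6.5. Each M-iPSC value lay below each GC-iPSC value by a narrow margin, and that difference was not called (log2 -0.24, 95% interval -0.48 to -0.01, edgeR adjusted p = 0.279). Against V6.5, Dazl had a log2 change of -0.43 (edgeR adjusted p = 0.0496), lost in 5 of the 6 leave-out fits, with adjusted p up to 0.0826, and with DESeq2's size factors; of the leave-out fits it was kept only in the one without M-iPSC 2. Meioc, a partner of Ythdc2 that holds germ cells in meiotic prophase, had 16.3, 22.8 and 23.7 CPM in M-iPSC colonies, 20.8, 20.5 and 21.4 CPM in GC-iPSC colonies and 34.4 CPM in V6.5. M-iPSC 1 was low and the other two M-iPSC colonies were above the GC-iPSC range, so the colony groups overlapped, while V6.5 was above them all (log2 -0.72 for iPSCs over V6.5, SE 0.16, edgeR adjusted p = 0.00781).

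Among the 7 genes of the chromosome axis, synaptonemal complex and cohesin, Smc1b was lower in M-iPSC than in GC-iPSC colonies, and Sycp1 and Hormad1 moved in opposite directions between iPSCs and V6.5. Smc1b, a cohesin subunit used in meiosis, had 25.1, 27.0 and 21.4 CPM in M-iPSC colonies, 32.5, 35.5 and 37.4 CPM in GC-iPSC colonies and 33.9 CPM in V6.5. All M-iPSC values were below all GC-iPSC values and V6.5 lay within the GC-iPSC range. The means were 24.5 ± 2.87 CPM in M-iPSC and 35.1 ± 2.49 CPM in GC-iPSC colonies (SD, n = 3 each), a log2 change of -0.52 (SE 0.10, edgeR adjusted p = 0.0132), lost without GC-iPSC 2 or M-iPSC 3 (adjusted p up to 0.0850). M-iPSC colonies were also lower than V6.5 (log2 -0.47, edgeR adjusted p = 0.0413) when all colonies were used. Sycp1, the transverse filament that zips paired chromosomes, had 12.3, 12.5 and 11.9 CPM in M-iPSC colonies, 13.3, 16.3 and 17.7 CPM in GC-iPSC colonies and 8.98 CPM in V6.5. The M-iPSC values sat just under the GC-iPSC ones without a call (log2 -0.37, 95% interval -0.64 to -0.10, edgeR adjusted p = 0.141), and V6.5 was the lowest library. iPSCs exceeded V6.5 in Sycp1 by 0.63 on the log2 scale (SE 0.18, edgeR adjusted p = 0.0315). That call was lost without GC-iPSC 2 (adjusted p 0.0649), without M-iPSC 2 and M-iPSC 3 together, and with limma-voom. Hormad1, an axis protein that watches over unpaired chromosomes, had 22.6, 22.0 and 20.4 CPM in M-iPSC colonies, 23.0, 26.6 and 24.5 CPM in GC-iPSC colonies and 33.3 CPM in V6.5. The colony groups did not overlap but the difference was not called (edgeR adjusted p = 0.364), and iPSCs lay below V6.5 (log2 -0.52, SE 0.12, edgeR adjusted p = 0.0106), though 9.36% of the 100-base stretches of Hormad1 transcripts also occur in Gm15529. Syce1, of the central element, had 12.1, 12.7 and 13.7 CPM in M-iPSC colonies, 15.7, 15.9 and 11.5 CPM in GC-iPSC colonies and 17.8 CPM in V6.5. V6.5 was highest and the colony groups overlapped, with no call in any comparison. The remaining axis genes, Sycp2, Sycp3 and Hormad2, ranged from 2.21 CPM (Sycp2 in V6.5) to 10.4 CPM (Hormad2 in V6.5) and were not called. Of the exon bases of Sycp3, 52.2% overlap Chpt1 on the other strand, so their counts may be shared.

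Of the 3 recombination genes, Tex15 showed the biggest rise among the 34 in M-iPSC over GC-iPSC colonies, while Dmc1 and Tex11 set V6.5 apart from all colonies. Tex15, on chromosome 8 (chr8:33516738-33585582, + strand, GRCm38), had 9.44, 18.4 and 18.3 CPM in M-iPSC colonies, 4.94, 5.61 and 7.15 CPM in GC-iPSC colonies and 10.4 CPM in V6.5. M-iPSC 2 and M-iPSC 3 stood at about the same level and M-iPSC 1 stood between them and the GC-iPSC colonies, just under V6.5. Tex15 averaged 15.4 ± 5.15 CPM in M-iPSC and 5.90 ± 1.14 CPM in GC-iPSC colonies (SD, n = 3 each), a log2 change of 1.38 (SE 0.23, 2.61-fold, edgeR adjusted p = 0.00506). The call was kept when any 1 colony was left out (adjusted p up to 0.0396). Without M-iPSC 2 and M-iPSC 3 together, its adjusted p was 0.252. Against V6.5 it was not called (log2 -0.13, 95% interval -0.76 to 0.51), and the V6.5 level lies between the 2 colony groups' means. Genes on chromosome 8 as a whole had a median log2 change of -0.25 in iPSCs over V6.5 and 0.01 in M-iPSC over GC-iPSC colonies. For iPSCs over V6.5, the medians of the other chromosomes, the Y aside, lay between -0.05 and 0.19. The part of chromosome 8 as a whole in the Tex15 values was not tested. Dmc1, the meiotic recombinase, had 11.6, 14.1 and 11.8 CPM in M-iPSC colonies, 12.6, 12.4 and 14.4 CPM in GC-iPSC colonies and 27.9 CPM in V6.5. V6.5 was about 2 times higher than any colony group, and the colony groups overlapped (iPSC over V6.5, log2 -1.12, SE 0.15, edgeR adjusted p = 0.000176). Tex11, an X-linked gene of crossover formation, had 10.7, 12.9 and 14.1 CPM in M-iPSC colonies, 11.4, 12.7 and 12.6 CPM in GC-iPSC colonies and 19.7 CPM in V6.5, again highest in V6.5 (log2 -0.67, SE 0.16, edgeR adjusted p = 0.0124). The X chromosome's median log2 change in the same comparison was 0.19.

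**Figure D4:**
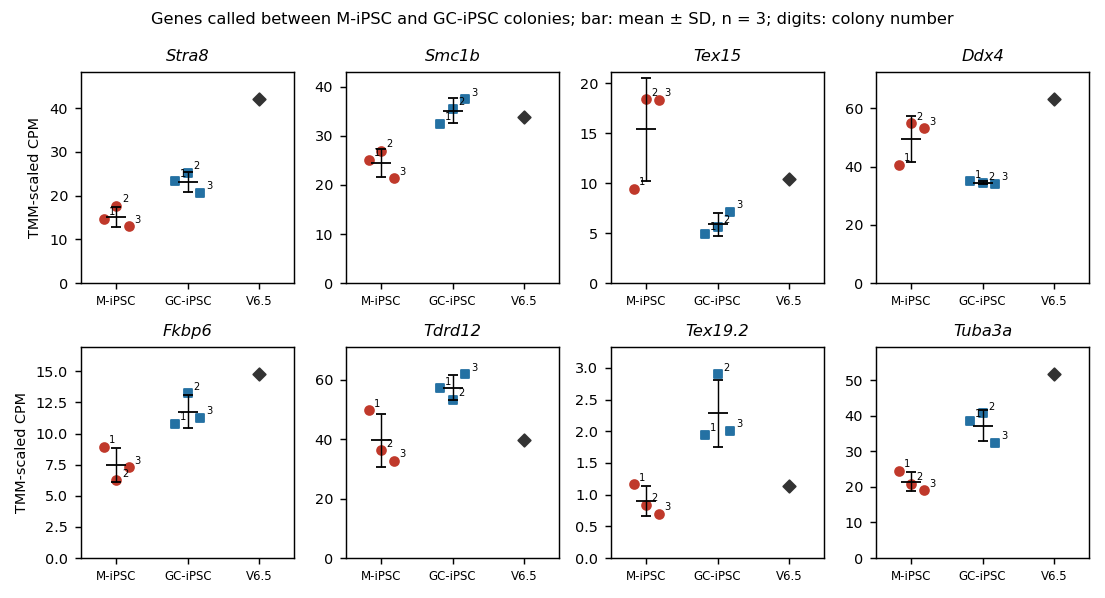
The 8 genes called between M-iPSC (red circles) and GC-iPSC (blue squares) colonies, in TMM-scaled CPM with the mean ± SD of 3 colonies and the colony number beside each point, and the single V6.5 library (black diamond). For Tex15 and Ddx4, M-iPSC 1 lies nearer to the GC-iPSC colonies than M-iPSC 2 and 3 do.

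The 11 piRNA pathway genes split. Between colony groups Ddx4 was higher and Fkbp6 and Tdrd12 lower in M-iPSC, and between iPSCs and V6.5 Mael and Tdrd5 were higher and Piwil2, Ddx4 and Fkbp6 lower in iPSCs. Ddx4, a helicase of the germ granule, had 40.6, 54.9 and 53.1 CPM in M-iPSC colonies, 35.0, 34.3 and 34.1 CPM in GC-iPSC colonies and 63.0 CPM in V6.5. The GC-iPSC colonies were nearly equal, every M-iPSC colony was above them, and V6.5 was above all. Ddx4 means were 49.5 ± 7.78 CPM in M-iPSC and 34.4 ± 0.455 CPM in GC-iPSC colonies (SD, n = 3 each), a log2 change of 0.52 (SE 0.11, edgeR adjusted p = 0.0158), lost without GC-iPSC 2, M-iPSC 2 or M-iPSC 3 (adjusted p up to 0.102). iPSCs were below V6.5 in Ddx4 by a log2 change of -0.61 (SE 0.13, edgeR adjusted p = 0.00597). Each colony group's own change from V6.5 was -0.35 for M-iPSC (adjusted p = 0.124) and -0.87 for GC-iPSC (adjusted p = 0.00106). Piwil2, the Argonaute protein Mili that carries piRNAs, had 24.4, 36.3 and 31.1 CPM in M-iPSC colonies, 20.6, 23.3 and 23.3 CPM in GC-iPSC colonies and 47.6 CPM in V6.5. Its order was that of Ddx4, but the colony difference was not called (log2 0.45, 95% interval 0.17 to 0.73, edgeR adjusted p = 0.0815). DESeq2, the fit with the replicate number as a block, and the fit with no filter on low counts did call it, as did the fit without M-iPSC 1. Against V6.5 the log2 change of Piwil2 was -0.86 (SE 0.16, edgeR adjusted p = 0.00199).

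Fkbp6, a cochaperone of piRNA loading, had 8.92, 6.23 and 7.29 CPM in M-iPSC colonies, 10.8, 13.2 and 11.3 CPM in GC-iPSC colonies and 14.7 CPM in V6.5. The 3 groups did not overlap, with M-iPSC lowest. The log2 change was -0.65 between colony groups (SE 0.16, edgeR adjusted p = 0.0362), lost without GC-iPSC 1, GC-iPSC 2, M-iPSC 2 or M-iPSC 3 (adjusted p up to 0.22). Against V6.5 it was -0.65 (SE 0.19, edgeR adjusted p = 0.0332), lost without GC-iPSC 1, without M-iPSC 3, or without M-iPSC 2 and M-iPSC 3 together. Tdrd12, a Tudor-domain protein of secondary piRNA production, had 49.8, 36.3 and 32.6 CPM in M-iPSC colonies, 57.2, 53.2 and 61.8 CPM in GC-iPSC colonies and 39.9 CPM in V6.5. M-iPSC 1 was closest to the GC-iPSC colonies, and V6.5 lay inside the M-iPSC range. Its log2 change between colony groups, -0.54 (SE 0.13, edgeR adjusted p = 0.0357), passed in 1 of the 6 leave-out fits, the one without M-iPSC 1, and its adjusted p reached 0.182 in the others. Mael, which transposon silencing needs, had 23.8, 25.0 and 24.6 CPM in M-iPSC colonies, 28.9, 27.9 and 21.4 CPM in GC-iPSC colonies and 14.7 CPM in V6.5. All 6 colonies were above V6.5 (log2 0.78, SE 0.17, edgeR adjusted p = 0.00627), and the colony groups overlapped. Tdrd5, a Tudor-domain protein of pachytene piRNA processing, had 10.7, 9.94 and 14.2 CPM in M-iPSC colonies, 9.24, 9.75 and 9.04 CPM in GC-iPSC colonies and 6.37 CPM in V6.5. The M-iPSC values were above the GC-iPSC ones without a call (edgeR adjusted p = 0.329), and M-iPSC 3 stood apart. All colonies exceeded V6.5 (log2 0.71, SE 0.22, edgeR adjusted p = 0.0388), a call lost without GC-iPSC 1 or GC-iPSC 2 and with limma-voom. Stk31, a Tudor-domain protein with a kinase-like domain, had 13.7, 15.5 and 15.3 CPM in M-iPSC colonies, 16.0, 17.0 and 18.1 CPM in GC-iPSC colonies and 19.4 CPM in V6.5. The groups were ordered in that way without overlap, and no comparison was called (M-iPSC over GC-iPSC, log2 -0.20, 95% interval -0.44 to 0.03). Mov10l1, the helicase that hands precursor RNA to piRNA processing, had 15.8 to 22.5 CPM in M-iPSC colonies, 18.6, 18.7 and 16.2 CPM in GC-iPSC colonies and 20.8 CPM in V6.5. The groups overlapped and no comparison was called (M-iPSC over GC-iPSC, log2 0.10, 95% interval -0.18 to 0.39). Tdrd1, Tdrd9 and Asz1 were not called either, and the last 2 stayed at or below 1.16 CPM in every library.

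The Tex19 pair differed. Tex19.1, which restrains retrotransposons and serves the placenta, had 69.0, 55.3 and 60.3 CPM in M-iPSC colonies, 65.2, 69.1 and 57.9 CPM in GC-iPSC colonies and 53.7 CPM in V6.5. All colonies were above V6.5 by a small margin, and nothing was called. Its paralog Tex19.2, a gene of low level, had 1.16, 0.838 and 0.697 CPM in M-iPSC colonies (22 to 38 counts), 1.94, 2.90 and 2.01 CPM in GC-iPSC colonies (64 to 95 counts) and 1.14 CPM in V6.5 (34 counts). The M-iPSC values were all below the GC-iPSC values, and V6.5 sat at the upper end of the M-iPSC values. Tex19.2 means were 0.899 ± 0.238 CPM in M-iPSC and 2.28 ± 0.532 CPM in GC-iPSC colonies (SD, n = 3 each), a log2 change of -1.34 (SE 0.31, edgeR adjusted p = 0.0322), lost without GC-iPSC 1, GC-iPSC 2, M-iPSC 2 or M-iPSC 3 (adjusted p up to 0.214). The difference between the 2 paralogs' changes was not tested.

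Among the transcription factors, Rhox5 and Taf7l were higher in iPSCs than in V6.5. Rhox5 (chrX:37804842-37808876, + strand), an X-linked homeobox gene of the testis and epididymis whose promoter is a textbook target of methylation in mice, had 106, 69.9 and 85.7 CPM in M-iPSC colonies, 119.7, 109 and 101 CPM in GC-iPSC colonies and 11.9 CPM in V6.5. The lowest colony was far above V6.5. M-iPSC 1 fell within the GC-iPSC range and the other two M-iPSC colonies below it. Over V6.5 the log2 change was 3.04 (SE 0.21, 8.23-fold, edgeR adjusted p = 2.06e-06), called under each of the 14 other settings tried. Between colony groups it was -0.34 (95% interval -0.60 to -0.07, edgeR adjusted p = 0.172), called only without M-iPSC 1, with the replicate block or with no filter on low counts. Taf7l, an X-linked relative of the general transcription factor Taf7 used in germ cells, had 4.80, 6.38 and 5.70 CPM in M-iPSC colonies, 4.69, 4.91 and 5.08 CPM in GC-iPSC colonies and 2.58 CPM in V6.5. All 6 colonies were higher than V6.5 (log2 1.02, SE 0.26, edgeR adjusted p = 0.0162). Both genes are on the X chromosome, whose median log2 change in this comparison was 0.19, and its part in their changes was not tested. Brdt, the testis bromodomain protein, overlapped between groups at 1.77 to 4.27 CPM in the colonies and 3.45 CPM in V6.5.

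Of the 5 other germ cell proteins, Tuba3a was called in both comparisons. Tuba3a, an alpha-tubulin of the testis, had 24.5, 20.9 and 19.0 CPM in M-iPSC colonies, 38.5, 40.7 and 32.3 CPM in GC-iPSC colonies and 51.6 CPM in V6.5. The 3 groups were separate, with M-iPSC lowest and V6.5 highest. Tuba3a means were 21.5 ± 2.76 CPM in M-iPSC and 37.2 ± 4.36 CPM in GC-iPSC colonies (SD, n = 3 each), a log2 change of -0.79 (SE 0.12, edgeR adjusted p = 0.00208) that was kept when any 1 colony was left out (adjusted p up to 0.0207). Against V6.5 it was -0.87 (SE 0.14, edgeR adjusted p = 0.000797). Tuba3b, a near copy, had 0.550, 0.599 and 0.507 CPM in M-iPSC colonies, 1.66, 2.01 and 0.690 CPM in GC-iPSC colonies and 0.871 CPM in V6.5. It ran the same way between colony groups, with GC-iPSC 3 low, and was not called (log2 -1.40, 95% interval -2.33 to -0.47, edgeR adjusted p = 0.0991). The pair share 12.3% (Tuba3a) and 11.8% (Tuba3b) of their 100-base stretches with other genes, each among them the other of the pair, so reads can be split between them. Slc25a31, an ADP/ATP carrier of germ cell mitochondria, was even, at 4.40, 4.49 and 4.44 CPM in M-iPSC colonies, 4.33, 4.27 and 4.14 CPM in GC-iPSC colonies and 2.61 CPM in V6.5. The narrow M-iPSC range lay just above the narrow GC-iPSC range with a log2 change of 0.06 (95% interval -0.31 to 0.43). All colonies exceeded V6.5 without a call (log2 0.73, edgeR adjusted p = 0.0631). Tex101, a surface protein of germ cells, and Dpep3, a testis dipeptidase on chromosome 8, stayed at or below 2.21 CPM. Dpep3 lay below its V6.5 level in all 6 colonies (edgeR adjusted p = 0.100). Chromosome 8 as a whole had a median log2 change of -0.25 in that comparison, and its part in the Dpep3 values was not tested.

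Levels were compared between genes as CPM per kilobase of exon. Over the 6 colonies Rhox5 was first at 131 ± 23.8 (mean ± SD, n = 6), followed by Tex19.1 at 33.5 ± 3.12, Tuba3a at 19.4 ± 6.09, Mael at 14.6 ± 1.60 and Ddx4 at 13.9 ± 3.19. From Tuba3a to Ddx4 the means differ by less than the SD of Tuba3a, and the order differs by group. In M-iPSC colonies Ddx4 averaged 16.4 ± 2.58 and Tuba3a 14.2 ± 1.83, while in GC-iPSC colonies Ddx4 averaged 11.4 ± 0.151 and Tuba3a 24.6 ± 2.89, with Mael, Hormad1, Tdrd12 and Stra8 between them. At the low end stood Tdrd9 at 0.153 ± 0.0391, Asz1 at 0.157 ± 0.0898 and Tex101 at 0.229 ± 0.117, which their spreads do not separate. In V6.5 the order was led by Tuba3a at 34.2, Tex19.1 at 28.7, Stra8 at 23.3, then Ddx4 at 20.9 and Hormad1, and Rhox5 was at 15.8.

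The other genes of these pathways came from lists that held none of the 34. Of 30 further meiosis genes, 24 were tested between colony groups. By the edgeR test 4 were lower in M-iPSC and none higher, against 2.27% and 1.7% of all genes tested. At an unadjusted p under 0.05 there were 7, against 3022 of all 18166 genes tested. The 4 called were Ccnb1ip1, a ubiquitin ligase of crossing over, Mnd1 and Msh4, of strand exchange and crossover, and Stag3, a meiotic cohesin. Ccnb1ip1 had 12.1, 11.9 and 8.59 CPM in M-iPSC colonies, 26.9, 26.3 and 24.3 CPM in GC-iPSC colonies and 13.9 CPM in V6.5. Stag3, which works with Smc1b, had 93.0, 89.5 and 81.6 CPM in M-iPSC colonies, 107, 112 and 122 CPM in GC-iPSC colonies and 125 CPM in V6.5. For both genes, every M-iPSC value was below every GC-iPSC value. Without M-iPSC 2 and M-iPSC 3 the call of Ccnb1ip1 was kept (log2 -1.10, edgeR adjusted p = 0.00322) and those of Stag3 (-0.29, 0.283), Mnd1 (-0.42, 0.135) and Msh4 (-0.99, 0.381) were lost. Against V6.5, 5 of 27 tested were called, a share near the 16.3% of all genes: Prdm9, which marks the sites of recombination, was higher in iPSCs (4.00, 1.74 and 3.07 CPM in M-iPSC colonies, 2.14, 2.74 and 3.39 CPM in GC-iPSC colonies and 0.436 CPM in V6.5), and Cntd1, Majin, Stag3 and Syce2 were lower. Of 15 further piRNA genes, 1 of 12 tested was called between colony groups (3.97% of all genes), Gpat2, lower in M-iPSC, and that call was lost without M-iPSC 2 and M-iPSC 3 (log2 -0.74, edgeR adjusted p = 0.0553). Against V6.5, 2 of 14 tested were called (16.3% of all genes), Tdrd7 higher and Dnd1 lower in iPSCs. Dnd1 is not a piRNA gene in the narrow sense, and it is also on the list of primordial germ cell genes below. The median log2 change was -0.13 for the meiosis list and -0.06 for the piRNA list between colony groups, and -0.22 and 0.01 between iPSCs and V6.5, against 0.00 and 0.02 over all genes tested.

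Rhox5 did not stand alone in its family. Of 10 other Rhox genes, 5 passed the filter, and of these Rhox6 and Rhox9 were higher in iPSCs than in V6.5. Rhox6 had 16.4, 15.7 and 11.7 CPM in M-iPSC colonies, 14.6, 16.3 and 13.3 CPM in GC-iPSC colonies and 2.61 CPM in V6.5. Rhox9 had 12.2, 10.9 and 8.30 CPM in M-iPSC colonies, 11.3, 12.2 and 12.0 CPM in GC-iPSC colonies and 1.81 CPM in V6.5. All 6 colonies exceeded V6.5 in both genes (log2 2.49 and 2.62, edgeR adjusted p = 2.85e-05 and 2.89e-05), and between colony groups edgeR called none of the 5, with 1 at an unadjusted p under 0.05.

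The enzymes that set new methylation differed between iPSCs and V6.5. Of 26 genes of the silencing machinery, 6 were called there, against 16.3% of all genes: Dnmt3a, Dnmt3b and Dnmt3l (a cofactor of the other two) were higher in iPSCs, and Kdm1a, Rnf2 and Tfdp1 were lower. Dnmt3b had 418, 295 and 374 CPM in M-iPSC colonies, 296, 289 and 304 CPM in GC-iPSC colonies and 105 CPM in V6.5, about 3 times higher in iPSCs. Dnmt1 and Uhrf1, which maintain methylation, and E2f6, Mga, Pcgf6 and Setdb1 were not called in any comparison. M-iPSC colonies had more Dnmt3l (edgeR adjusted p = 0.0469) and Ehmt2 (edgeR adjusted p = 0.0276) than GC-iPSC colonies. Ehmt2 had 306, 472 and 491 CPM in M-iPSC colonies, 288, 289 and 267 CPM in GC-iPSC colonies and 257 CPM in V6.5, high in M-iPSC 2 and M-iPSC 3, the same colonies that were high in Tex15. Without those colonies neither was called, Ehmt2 at a log2 change of 0.12 (edgeR adjusted p = 0.705) and Dnmt3l at 0.28 (edgeR adjusted p = 0.229). Of 9 genes of demethylation, Tdg, a DNA repair enzyme that removes oxidised methylcytosine, had 80.4, 74.9 and 67.9 CPM in M-iPSC colonies, 34.9, 34.3 and 37.2 CPM in GC-iPSC colonies and 68.0 CPM in V6.5. V6.5 lay at the low end of the M-iPSC range, and the GC-iPSC values were about 2 times lower than the M-iPSC ones (log2 1.07, edgeR adjusted p = 1.27e-05), a call kept without M-iPSC 2 and M-iPSC 3 (log2 1.18, edgeR adjusted p = 0.000308). In iPSCs Tet3 was higher and Tet2 lower than in V6.5. Tdg was called lower in iPSCs pooled, but its log2 change from V6.5 was 0.13 in M-iPSC colonies (edgeR adjusted p = 0.501) and -0.94 in GC-iPSC colonies (edgeR adjusted p = 9.36e-05). The part of these genes in the results above was not tested.

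**Figure D5:**
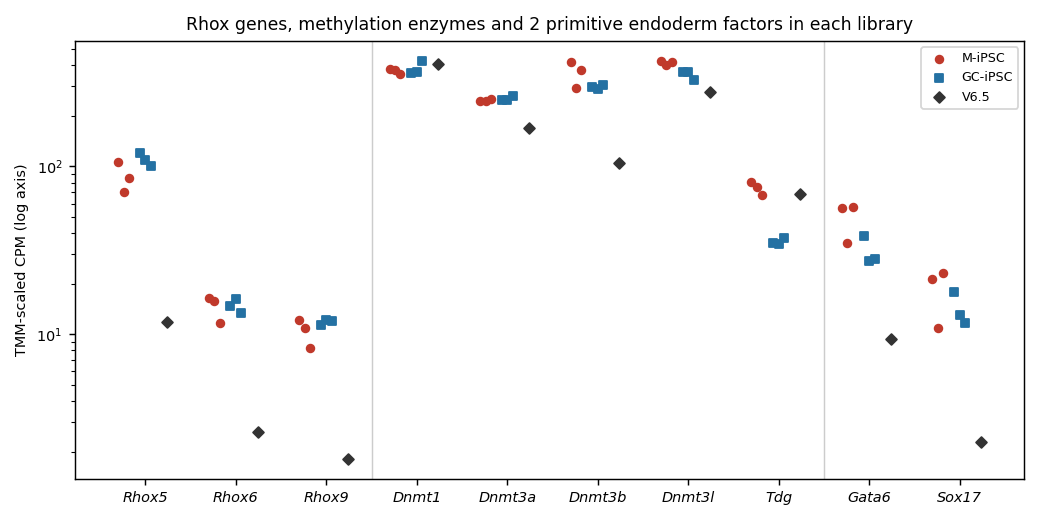
Level of Rhox5, Rhox6 and Rhox9, of 4 DNA methyltransferase genes and Tdg, and of the primitive endoderm factors Gata6 and Sox17 in each library, in TMM-scaled CPM on a log axis: red circles are M-iPSC colonies, blue squares GC-iPSC colonies and black diamonds V6.5. The 3 Rhox genes, Dnmt3b, Gata6 and Sox17 are higher in all 6 colonies than in V6.5, and Dnmt1 is not.

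Markers of other states of pluripotent cultures moved in the same comparisons. Of 10 primordial germ cell genes, edgeR called 0 between colony groups, with 4 at an unadjusted p under 0.05 (3022 of all 18166 genes tested). In iPSCs Sox17 and T were higher than in V6.5, and Dnd1, Ifitm3, Kit, Prdm1, Prdm14 and Tfap2c were lower. The lists share genes: Sox17 is also a primitive endoderm marker here, and Dnd1 is also on the piRNA list above. Tfap2c, which primordial germ cells need, had 58.6, 58.4 and 45.4 CPM in M-iPSC colonies, 64.8, 66.0 and 64.3 CPM in GC-iPSC colonies and 99.7 CPM in V6.5. All 10 primitive endoderm markers were higher in iPSCs than in V6.5, and 2 of them, Cubn and Dab2, were higher in M-iPSC than in GC-iPSC colonies. The 15 measured markers of the 2-cell-like state, a rare state of cultured stem cells that resembles the early embryo, summed to 258 to 384 CPM in M-iPSC colonies, 556 to 614 CPM in GC-iPSC colonies and 89.2 CPM in V6.5. Of them 11 were lower in M-iPSC than in GC-iPSC colonies, each also called without M-iPSC 2 and M-iPSC 3, as were Cubn and Dab2, and 14 were higher in iPSCs than in V6.5. The 12 fibroblast markers summed to 1126 to 1398 CPM in M-iPSC colonies, 1144 to 1209 CPM in GC-iPSC colonies and 802 CPM in V6.5. Of 11 tested, 7 were higher in iPSCs than in V6.5 and none lower (Col1a1, Col1a2, Pdgfra, Pdgfrb, Prrx1, Thy1 and Vim). Pdgfra is also among the primitive endoderm markers. Between colony groups edgeR called 0 of the fibroblast markers, with 2 at an unadjusted p under 0.05. Whether these states carry any of the differences in the 34 genes was not tested.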

How the data were processed

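Gene counts for 7 mouse libraries were used as the authors deposited them, as raw whole-number counts for 54838 Ensembl genes. The tools named, per the submitters' processing notes, are STAR 2.7.10a, featureCounts 2.0.6 and DESeq2 (no version), and the build is mm10 (GRCm38). The labels disagree on the library: a non-stranded poly-A preparation in one place and a directional kit in another, with different sequencers. Strand use in counting: not given in the sources used here. Low counts were more often even (68.5 to 72.2% of counts from 1 to 49) than high ones (49.5 to 50.9% at 1000 or more), so halved counts were tried. Symbols, lengths and coordinates came from GENCODE M21 (54809 of 54838 genes matched), promoters from RefSeq (GRCm38.p6).

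In R 4.3.3, edgeR 4.0.16 was run with filterByExpr, TMM scaling, the quasi-likelihood test (two-sided) and Benjamini-Hochberg adjustment over all genes tested, threshold 0.05. M-iPSC and GC-iPSC colonies were compared in a fit of those 6 libraries, and comparisons with V6.5 in a fit of all 7. Intervals are 95%. Floors of 3 counts cover counting error only. Alternatives were DESeq2 1.42.0 and its size factors, limma 3.58.1 (voom), other low-count filters, halved counts, a threshold of 0.01, all 7 libraries in the first fit, a replicate block and leaving out colonies. The scripts were tested on simulated data.

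The members and lists were chosen with earlier results of these data known. Genes were described in full if called in a comparison, at 10 CPM or more on average, or with groups that did not overlap; the rest, and Mov10l1 in M-iPSC colonies, by ranges. The limit of 1000 bases between RefSeq and GENCODE starts, which promoters are printed, and giving sign changes of never-called genes only as counts, were chosen after seeing the data, as was refitting genes of the other lists without M-iPSC 2 and 3.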

Additional observations from a re-analysis of the deposited data

Results flagged for a closer look

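Tdrd5 in M-iPSC 3 stood apart from the other colonies, at 14.2 CPM against 10.7 CPM in the nearest of the other 5. Its gap to that colony was 0.676 of the whole range of the 6 colonies, above Dixon's 95% critical value for 6 samples. Chance marks about 1 in 20 such groups. The rule was applied to all 34 genes and flagged only this 1, so the flag can be chance alone.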

How the results depend on the processing

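At an adjusted p under 0.01, the counts fell to 1 higher and 1 lower of the 34 genes (268 of all genes) for M-iPSC over GC-iPSC. In the same order they were 2 and 6 (1725) for iPSC over V6.5, 2 and 4 (1343) for GC-iPSC over V6.5, and 1 and 5 (1708) for M-iPSC over V6.5. Between colony groups DESeq2 called 1084 genes and the fit with no low-count filter 1318, each of 31586 tested, against 721 of 18166. Of the 34, DESeq2 called 3 higher and 6 lower, and the fit with no filter 3 higher and 8 lower. With limma-voom, 3 of the 34 were higher (Mael, Rhox5 and Taf7l) and 10 lower in iPSCs than in V6.5, with 2778 genes called in all. Leaving out 1 colony gave 1 to 3 higher, 1 to 7 lower and 244 to 814 genes in all for M-iPSC over GC-iPSC. For iPSC over V6.5 it gave 3 to 5 higher, 8 to 10 lower and 2575 to 3718 genes in all. Without M-iPSC 2 and 3 together, 0 were higher and 0 lower (373 genes) between colony groups and 1 was higher in M-iPSC than in V6.5. Same-numbered colonies had correlations of deviations of 0.0729, 0.0750 and 0.164, so the numbers were not taken to pair them, although each colony correlated best with its own number. With the replicate number as a block, 3 were higher, 7 lower and 963 genes were called, which added Piwil2 and Rhox5. Signs changed in 0 of the 47 calls of a gene in a comparison, in 2 of 62 that were called under at least 1 setting (Asz1 in M-iPSC over V6.5 without M-iPSC 1, 0.23, with -1.48 as the lowest value when any 1 colony was left out; Tex15 in the same comparison without M-iPSC 2 and 3, -0.14), and in 21 of 74 never called. The cause was not tested. With counts halved, 32 of the 34 were tested between colony groups.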
